A study of Mus musculus with 5 samples.

Results

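The angiopoietin-like genes examined here are Angptl7, Angptl1, Angptl2, Angptl4 and Angptl6, which code for secreted glycoproteins. They were found by gene symbol in the deposited table, and all 5 were among its 16413 genes. Angptl7 was selected on its CPM (counts scaled to each library's size) in these same libraries, which differed between the diets, and the other 4 were chosen by symbol as its relatives, so the diet values of all 5 are given as a description, with no test.

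Angiopoietin-like proteins share the build of the angiopoietins, a coiled coil followed by a fibrinogen-like domain, but they do not signal through the Tie receptors that angiopoietins use. Several act on blood lipids and fat tissue: Angptl4 inactivates lipoprotein lipase, the enzyme that frees fatty acids from circulating triglyceride, and is switched on by fasting, PPAR receptors and low oxygen. Angptl2 is an inflammatory factor released by fat and stroma, Angptl1 restrains vessel growth, Angptl6 promotes vessel growth and counters obesity in mice, and Angptl7 is best known from the eye, where it affects matrix and pressure.

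The data are RNA-seq of the thyroid gland of mice with the genotype LSL-BrafV600E;TgCreERT2, fed a high fat diet (3 libraries, replicates 2, 9 and 10) or chow (2 libraries, replicates 2 and 8). Both groups carried the mutation: the activating Braf allele (V600E) lies behind a stop cassette that a tamoxifen-dependent Cre, driven by the thyroglobulin promoter of follicular cells, removes. Tamoxifen was given for 1 week at 8 weeks of age, and the high fat diet ran for 12 weeks, between 10 and 22 weeks. The labels do not say that each library is a separate animal, so p-values measure only the spread between these libraries, which may be partly technical. In bulk tissue, fewer cells of a type and less RNA per cell cannot be told apart.

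Each library held 43494747 to 52663677 counts over genes. Thyroglobulin, the defining product of the thyroid follicle, took 17.1%, 14.9% and 10.9% of the counts in the high fat diet libraries and 18.7% and 22.1% in the chow libraries. High fat diet replicate 10 stood apart: its summed level of 8 airway markers was 6248 CPM, against 830 and 1259 CPM in the other high fat diet libraries and 644 and 826 CPM in the chow libraries. Muc5b, named after its values were seen, made up 4638 CPM of that sum. It was at 106 and 159 CPM in the other high fat diet libraries and 75.7 and 92.4 CPM in the chow libraries. In edgeR's quasi-likelihood test over 15765 genes, 0 genes passed an adjusted p of 0.05 in either direction (0%). At an unadjusted p under 0.05 edgeR gave 465 higher genes (2.95%) and 390 lower (2.47%). DESeq2 called 49 higher (0.305%) and 47 lower (0.292%), and limma-voom called 0.

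The sequences of the family were compared first, since genes of one family can share reads. A stretch of coding sequence around the longest run that Angptl7 shares with Angptl2, in the fibrinogen-like part, is shown for the 5 genes from the GENCODE transcripts of mm10, with capitals marking bases that match Angptl7.
Angptl7: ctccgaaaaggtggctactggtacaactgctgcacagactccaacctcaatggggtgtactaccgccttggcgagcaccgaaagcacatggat
Angptl1: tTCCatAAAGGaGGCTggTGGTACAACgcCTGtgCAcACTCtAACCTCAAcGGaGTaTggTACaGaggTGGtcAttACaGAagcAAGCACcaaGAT
Angptl2: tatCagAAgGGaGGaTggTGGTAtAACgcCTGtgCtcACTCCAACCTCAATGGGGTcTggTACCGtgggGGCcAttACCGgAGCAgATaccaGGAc
Angptl4: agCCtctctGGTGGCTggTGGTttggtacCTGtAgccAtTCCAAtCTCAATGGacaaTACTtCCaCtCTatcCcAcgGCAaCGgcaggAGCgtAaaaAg
Angptl6: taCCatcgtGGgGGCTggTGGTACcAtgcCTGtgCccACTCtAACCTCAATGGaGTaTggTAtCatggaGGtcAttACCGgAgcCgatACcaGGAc
In this stretch Angptl1 matched Angptl7 at 64 of 93 aligned bases, Angptl2 at 62 of 92, Angptl6 at 54 of 93 and Angptl4 at 52 of 93. Matches lay in short blocks split by differences. Over the whole coding sequence, identity with Angptl7 ran from 62.7% for Angptl4 to 67.5% for Angptl2. The longest exact run that Angptl7 shared with a relative was 19 bases, ACTCCAACCTCAATGGGGT, with Angptl2. Among the other pairs, Angptl2 and Angptl6 shared the longest run, of 25 bases, GATACCAGGACGGGGTCTACTGGGC, and Angptl1 and Angptl4 the shortest, of 10 bases. No pair of these 5 coding sequences shared an exact run over 25 bases.

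On mm10, Angptl7 (gene ID 654812) spans 148495183 to 148500460 of chromosome 4 on the minus strand and has 5 exons. It lies inside intron 28 of Mtor, the growth kinase gene, which runs on the plus strand. Angptl1 (72713; chromosome 1, 156838562 to 156861078) lies the same way inside intron 8 of Ralgps2, and Angptl2 (26360; chromosome 2, 33216069 to 33247717) inside intron 8 of Ralgps1, each on the strand opposite its host. Exons of these 3 genes overlap 0 bases of the exons of their hosts. A further antisense locus, Gm37802, overlaps 465 exonic bases of Angptl1 and was not analysed here. Angptl6 (70726; chromosome 9, 20873808 to 20879727) overlaps the end of the convergent gene A230050P20Rik by 265 exonic bases, and Angptl4 (57875; chromosome 17, 33773750 to 33781830) overlaps no other gene.

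The kit marked strand, but whether the counting used strand is not given in the sources used here, so reads of a host's unspliced RNA inside its intron cannot be told apart from those of the gene nested there. Mtor was at 114, 115 and 108 CPM in the high fat diet libraries and 117 and 137 CPM in the chow libraries. Its log2 fold change was -0.18 (SE 0.11, edgeR adjusted p = 0.966). This value is for the gene as a whole and does not measure RNA of intron 28. The part of unspliced Mtor RNA in the level of Angptl7 was not tested. The hosts of the relatives, guanine nucleotide exchange factors for Ral, also did not pass: Ralgps1 had -0.35 (SE 0.18; edgeR adjusted p = 0.94) and Ralgps2 0.01 (SE 0.15; edgeR adjusted p = 0.997). Dock6, a further gene of the host list, had 0.00017. A230050P20Rik, chosen after its values were seen, was at 8.27, 8.10 and 10.5 CPM on the high fat diet and 7.78 and 7.52 CPM on chow.

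Angptl7 differed most between the diets among the 5 genes. It had 320, 369 and 292 counts in the high fat diet libraries and 95 and 109 counts in the chow libraries. Scaled to depth this was 6.18, 7.35 and 5.78 CPM on the high fat diet and 2.20 and 2.65 CPM on chow. The groups did not overlap, and the lowest high fat diet value was 2.18 times the highest chow value. Means were 6.44 ± 0.816 CPM on the high fat diet (SD, n = 3) and 2.43 ± 0.320 CPM on chow (SD, n = 2), 2.65 times as high, a log2 fold change of 1.41 (SE 0.22). It was the 1 gene of the 5 with a log2 fold change of at least 1, where 1.79% of all genes tested had one, and 0.71% of the genes tested (112 of 15765) had one as large as that of Angptl7. With 1 library left out in turn the value ran from 1.27 (without chow replicate 2) to 1.55 (without chow replicate 8), and it was 1.48 without high fat diet replicate 10.

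**Figure D1:**
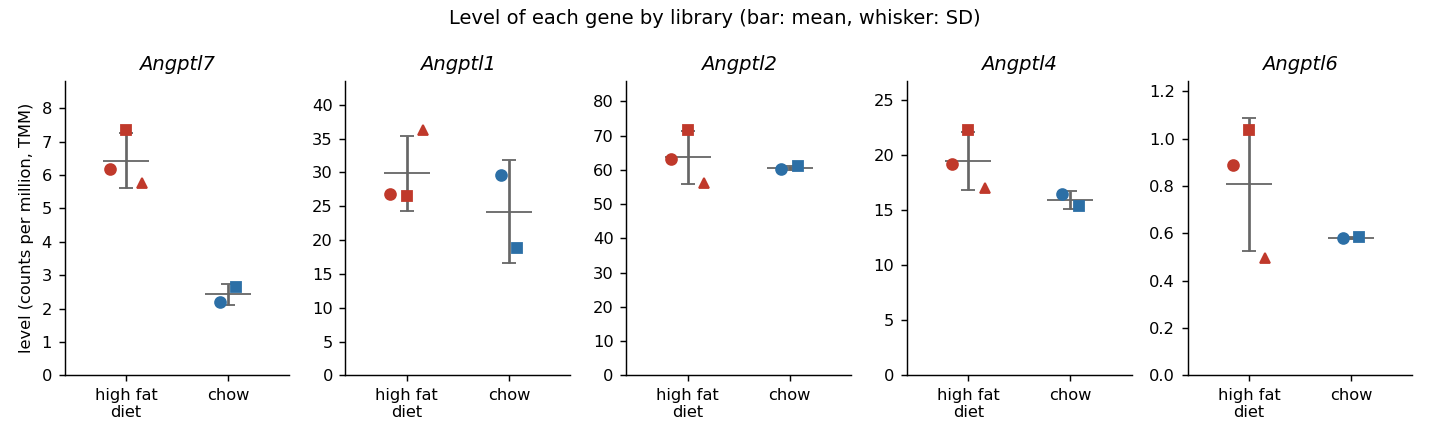
Level of each angiopoietin-like gene in CPM (TMM-scaled; axes start at 0) in the 3 high fat diet libraries (red) and the 2 chow libraries (blue), where circles mark replicate 2, squares replicate 9 or 8 and triangles replicate 10, with the mean and SD in grey. The groups lie apart for Angptl7, with 5.78 to 7.35 CPM against 2.20 to 2.65 CPM, and lie close together for Angptl4, while those of Angptl1, Angptl2 and Angptl6 overlap.

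Angptl4, the lipase inhibitor, was the other gene whose groups did not overlap, by a narrow margin. It was at 19.1, 22.2 and 17.0 CPM on the high fat diet and 16.5 and 15.4 CPM on chow, so that the lowest high fat diet library was 1.03 times the highest chow library. The log2 fold change was 0.29 (SE 0.15; 0.38 without high fat diet replicate 10), with means of 19.5 ± 2.62 CPM on the high fat diet (SD, n = 3) and 15.9 ± 0.798 CPM on chow (SD, n = 2). Thus 2 of the 5 genes had every high fat diet library above both chow libraries, where 10.6% of all genes tested did, and 0 of the 5 had every one below, where 10.3% did. These are counts over genes of which one was picked for this difference.

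Angptl1 varied most within the groups among the more abundant members. It was at 26.8, 26.5 and 36.3 CPM on the high fat diet and 29.6 and 18.8 CPM on chow, so the groups overlapped. The chow libraries differed 1.57-fold from each other, and the log2 fold change of 0.30 (SE 0.23) depended on which of them was kept. It was 0.017 without chow replicate 8, 0.66 without chow replicate 2 and 0.14 without high fat diet replicate 10.

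Angptl2, the most abundant of the family here, was close to level. It was at 63.3, 71.6 and 56.1 CPM on the high fat diet and 60.3 and 61.1 CPM on chow, with both chow libraries inside the range of the high fat diet libraries. The log2 fold change was 0.07 (SE 0.13), -0.023 without high fat diet replicate 9 and 0.15 without high fat diet replicate 10.

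Angptl6 was near the floor of what these libraries count, with 46, 52 and 25 counts on the high fat diet and 25 and 24 counts on chow. That is 0.889, 1.04 and 0.495 CPM on the high fat diet and 0.579 and 0.584 CPM on chow. High fat diet replicate 10 lay below both chow libraries and the other high fat diet libraries above them. The log2 fold change was 0.47 (SE 0.45), with a range from 0.25 without high fat diet replicate 9 to 0.72 without high fat diet replicate 10.

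All 5 log2 fold changes were above 0, where 52.7% of all genes tested were, and the median over all genes was 0.01. All 5 genes passed the filter on low counts. The authors' deposited table lists Angptl7 as 1.85 times higher on the high fat diet after turning its chow-over-high-fat sign round. That is smaller than the 2.65 times from the counts here. How the deposited fold was computed is not stated in the sources used here. In the authors' deposited table the relatives lie between 1.04 times higher for Angptl2 and 1.22 times higher for Angptl1.

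**Figure D2:**
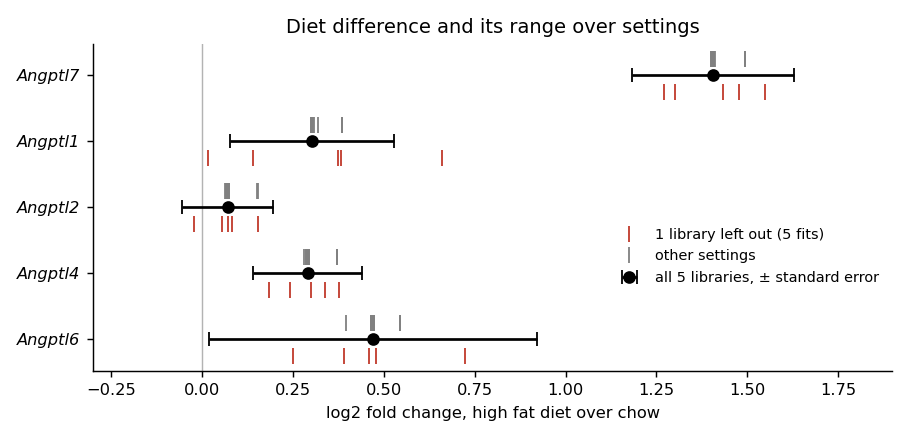
Log2 fold change of high fat diet over chow for each gene from edgeR, with all 5 libraries (black point, whisker 1 standard error), with 1 library left out (red ticks) and under other normalizations, filters and tools (grey ticks). Angptl7 stays between 1.27 and 1.55 in every fit shown, Angptl1 runs from 0.017 to 0.66 with 1 library left out, and Angptl2 lies around 0.

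Levels were compared between the genes per length, in FPKM, which scales fragments to transcript length and to library size. Angptl2 averaged 17.8 ± 1.75 FPKM over the 5 libraries (SD), Angptl1 12.4 ± 3.36 FPKM, Angptl4 9.30 ± 1.58 FPKM, Angptl7 2.32 ± 1.14 FPKM and Angptl6 0.444 ± 0.15 FPKM. Of all 16413 genes, 78.2% had a lower mean FPKM than Angptl2, 30.6% a lower one than Angptl7 and 12.1% a lower one than Angptl6. The order of Angptl2 and Angptl1 held in 4 of 5 libraries and their ranges overlapped. Angptl1 was above Angptl4 in 5 of 5 libraries, although the ranges overlapped. The steps below that were clear of the spread: Angptl4 was 3.20 to 8.15 times Angptl7 within a library, and Angptl7 was 2.92 to 9.16 times Angptl6.

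**Figure D3:**
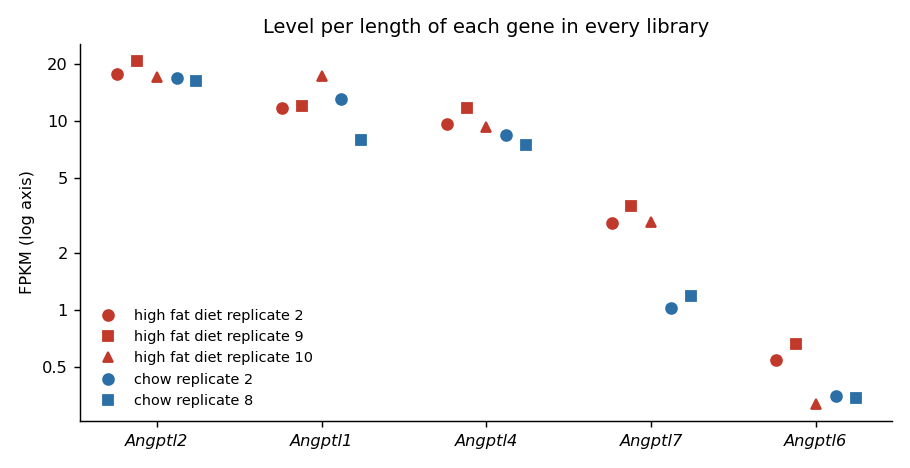
FPKM (log axis) of the 5 genes, ordered by their mean, in each of the 3 high fat diet libraries (red) and 2 chow libraries (blue). The 3 upper genes lie between 7.43 and 20.8 FPKM, Angptl7 between 1.03 and 3.55 FPKM and Angptl6 between 0.319 and 0.658 FPKM, with gaps between these ranges.

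Within the family, the share of Angptl7 differed with diet while that of its abundant relatives overlapped. Of the summed FPKM of the 5 genes, Angptl7 made up 6.77%, 7.30% and 6.23% in the high fat diet libraries and 2.59% and 3.57% in the chow libraries. Angptl2 made up 41.6%, 42.6% and 36.3% on the high fat diet and 42.6% and 49.2% on chow. The share of Angptl4 was 22.7%, 23.9% and 19.9% on the high fat diet and 21.1% and 22.4% on chow. So Angptl7 remained a minor member of the family in both groups.

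The pattern of each gene over the 5 libraries was compared by the root mean square difference of log2 CPM, each gene centred on its own mean. This is a distance in log2 units, smaller for genes that vary alike and also for genes that both vary little, and the points share library and depth. Angptl2 and Angptl4 were the most alike pair of the family at 0.11, both highest in high fat diet replicate 9. Angptl7 and Angptl6 were highest in that library too, while Angptl1 was highest in high fat diet replicate 10. Angptl7 stood 0.56 from Angptl4, 0.57 from Angptl6, 0.66 from Angptl1 and 0.66 from Angptl2, while its median distance to 14085 genes of at least 1 CPM was 0.72. For Angptl2 that median was 0.19, for Angptl4 0.24, for Angptl1 0.34 and for Angptl6 0.44.

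The 8 genes most like Angptl7 were picked for likeness to a gene itself selected on its diet difference. That all 8 lay higher in every high fat diet library than in both chow libraries (10.6% of all genes did) therefore follows from the choice. The nearest was Ptgs2os2, a transcript antisense to the prostaglandin synthase locus, at a distance of 0.13. Then came Sumo3, a ubiquitin-like modifier, at 0.16, Cldn9, a tight junction protein, at 0.23, and Ywhaz, which codes for a phosphoprotein adaptor, at 0.23. Sumo3 and Ywhaz have close paralogs or processed copies in the genome, so their counts are uncertain. Hoxb6, a homeobox factor, stood at 0.24, Rarb, a retinoic acid receptor, at 0.25, Ciart, a repressor of the circadian clock, at 0.26, and Cyp24a1, the enzyme that breaks down active vitamin D, at 0.27. Cyp24a1, for example, was at 37.1, 56.1 and 42.2 CPM on the high fat diet and 22.8 and 23.7 CPM on chow. Like Angptl7 it peaked in high fat diet replicate 9. Rarb was at 4.73, 5.02 and 3.56 CPM on the high fat diet and 2.08 and 2.56 CPM on chow.

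The relatives had other neighbours. Nearest to Angptl1 were Fcgr4, an antibody receptor of myeloid cells, at 0.04, Glt8d2 at 0.04 and Ppp1r18 at 0.05. Nearest to Angptl2 were Arl15, Dcbld1 and Vwa5a, at 0.02, 0.03 and 0.03. Angptl4 was nearest to Dab1, an adaptor of reelin signalling, and Rapgef4, an exchange factor that cyclic AMP activates, at 0.03 each, and to Kdr, a receptor for VEGF on endothelium, at 0.05. Angptl6 was nearest to Per3, a clock gene, at 0.09, followed by 9230104L09Rik at 0.10 and Kctd4 at 0.13.

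**Figure D4:**
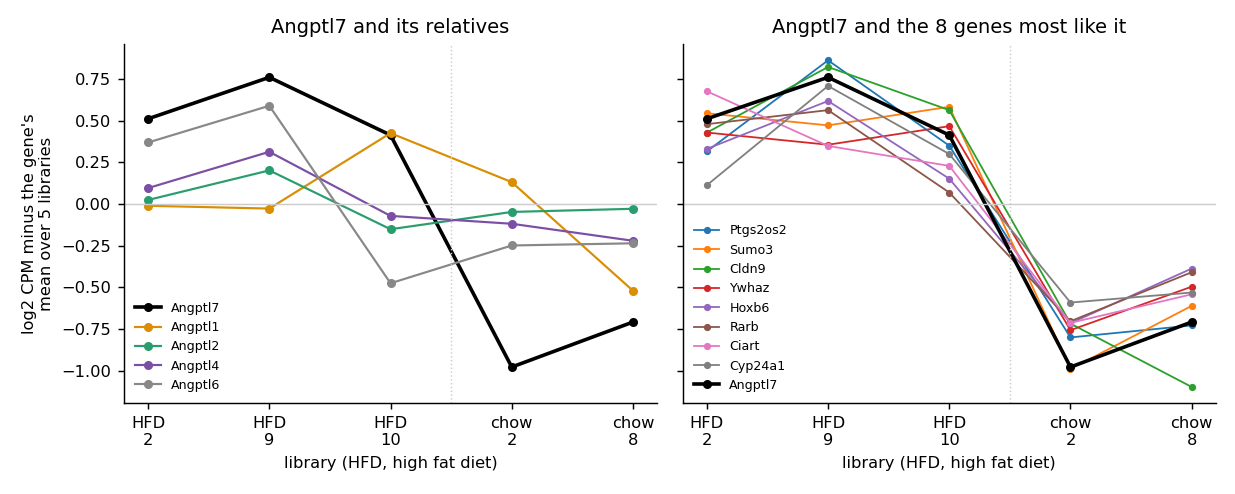
Log2 CPM of each gene minus its own mean over the 5 libraries, for Angptl7 and its relatives (left) and for Angptl7 and the 8 genes most like it (right). Lines join the libraries of 1 gene and imply no order among them. Angptl7 lies between 0.41 and 0.76 in the high fat diet libraries and between -0.98 and -0.71 in the chow libraries, while Angptl2 stays within -0.15 and 0.20 throughout.

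The annotated starts of 4 of the 5 genes were matched in the RefSeq promoter table (build GRCm38.p6). The 250 bases before the start are shown for Angptl7 (chr4:148500463-148500712, minus strand) and for Angptl2 (chr2:33215711-33215960, plus strand), since the diet values turn on Angptl7 and Angptl2 has the same nested layout. RefSeq and GENCODE do not always place a start alike: the RefSeq window of Angptl1 lies within its GENCODE span and is not shown. Capitals mark the 1 motif match found, TGACG on the opposite strand.
Angptl7: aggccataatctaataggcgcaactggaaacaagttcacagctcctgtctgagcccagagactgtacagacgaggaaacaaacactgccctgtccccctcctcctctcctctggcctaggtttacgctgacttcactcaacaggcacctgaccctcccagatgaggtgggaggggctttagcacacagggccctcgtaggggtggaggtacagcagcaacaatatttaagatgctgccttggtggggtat
Angptl2: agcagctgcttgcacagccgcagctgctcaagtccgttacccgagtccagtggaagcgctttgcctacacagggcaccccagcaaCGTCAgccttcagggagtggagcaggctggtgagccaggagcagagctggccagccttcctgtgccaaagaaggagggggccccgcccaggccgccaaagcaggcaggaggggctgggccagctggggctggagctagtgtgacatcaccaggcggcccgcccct
On both strands, 5 motifs were searched: TATAAA (the core promoter box), TGACG (part of the site for cyclic AMP response factors), ACGTG (core of the hypoxia element), the palindromic glucocorticoid response element and the direct repeat bound by PPAR receptors. TGACG and ACGTG can share bases where they lie together. None of these letters occurred in the Angptl7 window. TGACG occurred 1 time each in the windows of Angptl1 and Angptl2, as it did in 17.8% of 32851 promoter windows of the same length. The shares were 12.4% for TATAAA, 16.6% for ACGTG, 0.009% for the glucocorticoid receptor motif and 0.033% for the PPAR motif. A match is a description of letters and no match says nothing of a factor.

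Partners of the family were then examined by role, from lists chosen with earlier results of these data known. Over the 9 lists of partners, regulators and host genes, 99 genes were tested. In edgeR none of the 99 passed in either direction, and the lowest adjusted p was 0.596. DESeq2 and limma-voom called 0 as well. At an unadjusted p under 0.05, 9 were higher and 3 lower, 12.1% of the 99, where the share over all genes was 5.42%. The genes named are those of smallest p in each list, given as values that did not pass in edgeR over all genes. Of the 51 host, partner and marker genes so named, 34 had a log2 fold change that moved by over 1.5 times when 1 of the 5 libraries was left out.

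The list of angiopoietins and Tie receptors also held Ptprb and Svep1. It lay above 0 in 6 of 6 measured genes, and its median was 0.26 on the log2 scale. Angpt1, named after its values were seen, had 0.83, from 34.3 CPM in high fat diet replicate 10. The other high fat diet libraries held 8.96 and 8.62 CPM of it and the chow libraries 10.6 and 8.91 CPM. Angpt2, the antagonist ligand that loosens vessels, was at 11.1, 11.1 and 11.6 CPM on the high fat diet and 8.22 and 7.52 CPM on chow, with no overlap and a log2 fold change of 0.52 (edgeR adjusted p = 0.661). The receptor gene Tek had 0.34, its phosphatase Ptprb 0.18 and the sister receptor Tie1 0.14. Markers of endothelium lay on the same side: 6 of 6 were above 0, with Plvap at 0.25 and Kdr at 0.30, and their summed level was 446 to 556 CPM on the high fat diet and 382 to 468 CPM on chow. The part of vessel content in the values of this list was not tested.

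Reported receptors of angiopoietin-like proteins lay above 0 in 9 of 11, with a median of 0.08. Their summed level was 2721, 2682 and 2789 CPM on the high fat diet and 2413 and 2513 CPM on chow, with no overlap. The heparan sulfate proteoglycan Sdc4 had 0.51, the neuropilin Nrp1 0.23, the integrin subunit Itga5, through which Angptl2 acts, 0.25, and the endothelial cadherin Cdh5 0.19. Nrp1, at 460, 503 and 449 CPM on the high fat diet and 387 and 414 CPM on chow, was the 1 gene of the 11 whose groups did not overlap, where 10.6% of all genes lay apart in this direction and 10.3% in the other.

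The lipoprotein lipase system, the target of Angptl4, lay on both sides of 0, with 7 of 11 measured genes above and a median log2 fold change of 0.05. Lpl itself was at 70.1, 54.3 and 50.6 CPM on the high fat diet and 78.2 and 67.1 CPM on chow, so that the groups overlapped. Its log2 fold change was -0.32 (SE 0.15; edgeR adjusted p = 0.93), opposite in sign to that of Angptl4. The convertase gene Pcsk6 had 0.53, the lipoprotein receptor gene Vldlr 0.20 and the fatty acid carrier gene Cd36 0.19. With 1 library left out Pcsk6 ran from 0.26 to 0.87, Vldlr from 0.029 to 0.39 and Cd36 from 0.029 to 0.27. Adipocyte markers were lower alongside: 6 of 7 were below 0, and their sum was 61.7, 61.6 and 36.4 CPM on the high fat diet and 90.2 and 111 CPM on chow, with Cfd at a log2 fold change of -1.44 and Cidec at -1.07. DESeq2 called both of these while edgeR did not (edgeR adjusted p = 0.596 and 0.336). The part of fat content in the values of Lpl was not tested.

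PPAR receptors, which switch on Angptl4, and their other targets lay on both sides of 0, with 7 of 16 above and 9 below. The median was -0.0055 on the log2 scale. The lipid carrier gene Fabp4 had -0.33, the partner receptor Rxra -0.14 and Ppara -0.20 (0.13 without chow replicate 8). The part of fat content in the value of Fabp4 was not tested either.

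The hypoxia list had 10 of 15 above 0 and a median of 0.08. Its sum was 1570.3 to 1603 CPM on the high fat diet and 1540.0 to 1559 CPM on chow, apart by a small margin. The oxygen-sensitive factor Epas1 had 0.45, the oxygen sensor Egln1 -0.17 and the mitophagy gene Bnip3 -0.22. Ankrd37 had 1.57, from 4.17 CPM in high fat diet replicate 10, while the other high fat diet libraries held 0.927 and 0.717 CPM and the chow libraries 0.625 and 0.681 CPM. Its log2 fold change was 0.33 without high fat diet replicate 10.

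Glucocorticoid-responsive genes, listed because steroid induces Angptl7 in cells of the human eye, lay below 0 in 12 of 15, and their median was -0.17 on the log2 scale. The cell cycle inhibitor Cdkn1a had -0.45, the repressors Klf9 and Zbtb16 had -0.57 and -0.61, and the factor Cebpd had 0.35. At an unadjusted p under 0.05, 1 gene of the 15 was higher and 3 lower, where 2.95% and 2.47% of all genes were, and none passed over all genes in edgeR. Genes of the TGF-beta response lay above 0 in 10 of 11 with a median of 0.18. Their summed level overlapped between the diets, at 2215, 2925 and 3366 CPM on the high fat diet and 2586 and 2325 CPM on chow. The feedback inhibitor Smad7 had 0.64, the matrix protein gene Tgfbi 0.54, the ligand gene Tgfb2 0.29 and the matricellular gene Ctgf 0.21. Without high fat diet replicate 10, Smad7 had 0.46, Tgfbi 0.30, Tgfb2 0.12 and Ctgf 0.29.

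Other genes with a fibrinogen domain had the highest median of these lists at 0.31, with 7 of 9 above 0, and several were of low level. Their summed level went the other way, at 635, 642 and 686 CPM on the high fat diet and 689.9 and 715 CPM on chow. Tnn, a tenascin, had 1.93 and was at 1.97, 6.25 and 14.9 CPM on the high fat diet and 1.85 and 2.19 CPM on chow. Tnr, another tenascin, had 1.52 at less than 1 CPM throughout, the lectin gene Fcna had 1.41, and the abundant tenascin Tnc had -0.27. Without high fat diet replicate 10, Tnn had 1.02 and Fcna 0.80, and without chow replicate 8 Tnc had -0.09. The lowest adjusted p of the list in edgeR was 0.787.

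**Figure D5:**
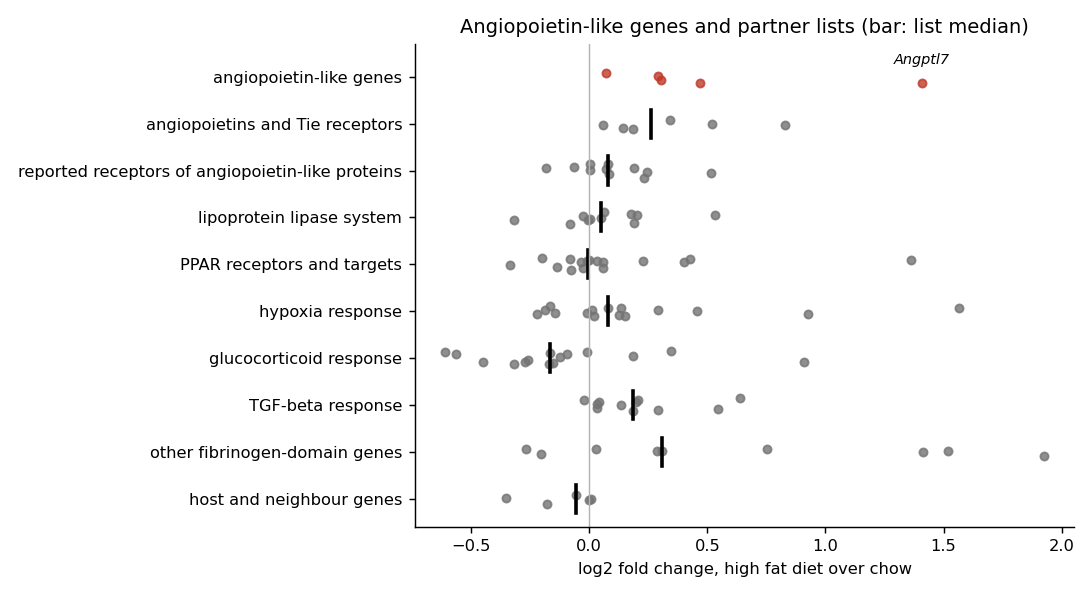
Log2 fold change of high fat diet over chow for the 5 angiopoietin-like genes (red) and for the measured genes of each partner list (grey, with the list's median as a black bar); vertical scatter within a row has no meaning. Angptl7 at 1.41 lies to the right of its 4 relatives, and the list medians lie between -0.17 and 0.31.

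Since Angptl7 is a stromal gene in other tissues, markers of the cell types a thyroid dissection can hold were set beside it. The sums of several lists overlapped between the diets, and the part of these cell types in the level of Angptl7 was not tested. Fibroblast markers (4 of 7 above 0, Dpt at 0.31 and Pi16 at 0.21) summed to 3269, 4610 and 5986 CPM on the high fat diet and 4971 and 3853 CPM on chow. Markers of tendon and corneal stroma (5 of 6 above 0, Scx at 0.48 and Fmod at 0.30) summed to 383, 527 and 459.8 CPM on the high fat diet and 441 and 397 CPM on chow. Nerve sheath markers (5 of 7 above 0, Msln at 1.22, or 0.69 without high fat diet replicate 10, and Sox9 at -0.22) summed to 278, 288 and 365 CPM on the high fat diet and 293 and 276 CPM on chow. Schwann cell markers (1 of 5 above 0, Mbp at -0.36 and Ncmap at 0.44) summed to 189 to 248 CPM on the high fat diet and 231 to 256 CPM on chow.

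Among the marker lists, the sums of 2 lay higher in every high fat diet library than in both chow libraries, as Angptl7 did. Cartilage markers (7 of 7 above 0, Comp at 0.39 and Col9a1 at 0.33) summed to 147, 146 and 188 CPM on the high fat diet and 120.1 and 123 CPM on chow. Comp and Col9a1 made up nearly all of this sum. They were the 2 of the 7 whose groups did not overlap, where 10.6% of all genes tested lay apart in this direction. The others were of low level. Acan, named after its values were seen, was at 9.63 CPM in high fat diet replicate 10. The other high fat diet libraries held 0.386 and 1.12 CPM of it and the chow libraries 0.208 and 0.511 CPM. Comp was at 83.5, 81.1 and 110 CPM on the high fat diet and 74.6 and 65.3 CPM on chow. Col9a1 was at 58.3, 58.5 and 63.8 CPM on the high fat diet and 42.3 and 53.6 CPM on chow. Airway markers (8 of 8 above 0, Bpifb1 at 1.53 and Tppp3 at 0.63) lay apart by a small margin, 830 against 826 CPM for the closest libraries. Of these, high fat diet replicate 2 held 106 CPM of Muc5b and chow replicate 8 held 92.4 CPM, a gap wider than that margin. The part of airway and cartilage content in the level of Angptl7 was not tested. Both sums were highest in high fat diet replicate 10, and the log2 fold change of Angptl7 was 1.48 without that library. Of the remaining markers, those of pericytes and smooth muscle had 2 of 5 above 0, macrophages 4 of 5, skeletal muscle 4 of 6, thyrocytes 4 of 8 and parathyroid 1 of 1, and the sums of the first 3 of these lists and of parathyroid overlapped between the diets. The thyrocyte sum was 104295 to 175623 CPM on the high fat diet and 190259 to 238024 CPM on chow, and nearly all of it was Tg. The 8 thyrocyte markers lay on both sides of 0: 3 were lower in every high fat diet library, Tg among them, where 10.3% of all genes tested were. Another 3 were higher in every one, Slc5a5 among them at 1.36, where 10.6% of all genes tested were. DESeq2 called Slc5a5 and edgeR did not, and Tg and Slc5a5 are named after their values were seen. The part of thyrocyte content in the values of the angiopoietin-like genes was not tested. The lists also held Col2a1, Matn1, Matn3, Col9a2, Sox10, Wif1, Pth and Gcm2, which were not found by symbol among the genes counted. The parathyroid list thus rests on Casr alone.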

How the data were processed

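Total RNA of mouse thyroid was made into stranded libraries, per the labels' protocols. Per the submitters' processing notes, the tools were among HISAT2, StringTie and DESeq2 and the build was mm10. The role of each, its version and the strand setting of the counting are not stated there. Read counts and FPKM values per gene were deposited by the authors, and, as a score, a signed fold of chow over high fat diet. All genes in the table had 1 or more counts in all 5 libraries. Count columns of 3 libraries outside these samples were left unused. Columns spell high fat diet with another middle letter and were matched by diet and number.

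Counts were fitted over the whole table with edgeR 4.0.16 in R 4.3.3 (TMM, filterByExpr, quasi-likelihood with robust shrinkage, diet alone), which left 15765 of 16413 genes, with Benjamini-Hochberg adjustment and a threshold of 0.05. Precision is set by 2 and 3 libraries and, for Angptl6, by low counts. CPM are counts scaled by TMM-adjusted totals. Alternatives were other factors and filters, DESeq2 1.42.0, limma-voom (limma 3.58.1), FPKM and leaving out each library. Fits were tested on simulated data. Sequences were compared with Biopython 1.88.

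Members and the 22 lists were chosen with earlier results of these data known. Named genes were the 5 members, the host genes, up to 4 genes of smallest p per list, the 8 most like Angptl7 and the 3 most like each relative; 2 genes that the rule names are not reported here.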

Additional observations from a re-analysis of the deposited data

How the results depend on the processing

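No paired analysis was made because the labels give no pairing between libraries of the 2 diets. The log2 fold change of Angptl7 ran from 1.27 to 1.55 with 1 library left out and from 1.40 to 1.5 under the other settings. That of Angptl4 ran from 0.18 to 0.38 and that of Angptl6 from 0.25 to 0.72 with 1 library left out. In the same fits Angptl1 ran from 0.017 (without chow replicate 8) to 0.66 (without chow replicate 2) and Angptl2 from -0.023 (without high fat diet replicate 9) to 0.15. Under the other settings no member changed sign, and Angptl6 was not kept by the stricter filter. The order of the 5 genes by FPKM was the same with medians and in all 5 subsets of 4 libraries.

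Over all genes DESeq2 called 49 higher and 47 lower, while leaving out 1 library gave 0 to 2 higher and 0 to 3 lower in edgeR. Among list genes DESeq2 called 5 (Actc1, Cfd, Cidec, Tppp3 and Slc5a5, all markers), and edgeR gave 0 to 2 with 1 library left out. Host and partner genes near 0 changed sign: Dock6 had -0.0048 with RLE factors, -0.0047 without Tg, -0.0012 in DESeq2 and -0.0033 in limma-voom. With 1 library left out, Ralgps2 ran from -0.041 to 0.058, Dock6 from -0.057 to 0.056, Tie1 from -0.068 to 0.39, Ppara from -0.47 to 0.13 and Pi16 from -0.047 to 0.53. The cause was not tested. Angptl6 rests on 24 to 52 counts a library.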
